A study of Homo sapiens with 4 samples.

Results

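The transcripts of 10 genes that keep chromosomal DNA folded and untangled were followed in IMR90 fibroblasts after knockdown of HMGB1. The genes were 6 condensin subunits (SMC2, SMC4, NCAPD2, NCAPG, NCAPH and NCAPD3) and 4 DNA topoisomerases (TOP1, TOP2A, TOP2B and TOP3A), found by identifier among the 63677 genes in the count files. IMR90 is a line of human fetal lung fibroblasts. RNA-seq was done on 2 libraries from cells given non-targeting control siRNAs and 2 from cells given siRNA against HMGB1 with the lipid reagent RNAiMAX, and all cells were collected after 72 h. Each group held 1 library of isolate I90-10 (replicate 1) and 1 of isolate I90-79 (replicate 2), both at passage 5 per the labels, so the isolates pair the libraries. The cells were a single line under transient siRNA, so no gene was deleted, and the paper's methods give 2 different siRNAs without saying which library received which.

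Condensins are ring-shaped ATPases that extrude DNA loops and compact chromosomes for mitosis. SMC2 and SMC4 form the ATPase arms of both vertebrate complexes. Condensin I adds NCAPD2, NCAPG and NCAPH and reaches the chromosomes once the nuclear envelope has broken down, whereas condensin II adds NCAPD3, NCAPG2 and NCAPH2 and is nuclear throughout the cell cycle. Topoisomerases cut and rejoin DNA to relieve supercoils and knots. TOP1 nicks a single strand and relaxes the supercoils that transcription leaves, and the type II enzymes TOP2A and TOP2B pass a duplex through a double-strand break. TOP2A is made mainly in proliferating cells, while TOP2B is also present in cells that do not divide. TOP3A works with the BLM helicase to dissolve recombination intermediates.

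The sequences before the start sites of 4 of these genes are shown because they set the type II pair side by side with 2 condensin I genes. Each run has 250 bases before the annotated start and 50 after it, from RefSeq on GRCh38.p14, on the strand of the gene. Capitals mark the CHR word TTTGAA, known from cell cycle genes, and the CCAAT word, each searched on both strands (TTCAAA and ATTGG on the other strand). The words share no base in these windows.
TOP2A, chr17:40417847-40418146, minus strand: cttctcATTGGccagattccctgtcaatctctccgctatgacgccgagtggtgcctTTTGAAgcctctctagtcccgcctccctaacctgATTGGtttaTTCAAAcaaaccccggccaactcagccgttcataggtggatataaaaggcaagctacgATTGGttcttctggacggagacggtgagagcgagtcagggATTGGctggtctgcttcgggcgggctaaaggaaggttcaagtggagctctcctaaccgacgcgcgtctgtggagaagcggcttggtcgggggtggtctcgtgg
TOP2B, outer start, chr3:25664858-25665157, minus strand: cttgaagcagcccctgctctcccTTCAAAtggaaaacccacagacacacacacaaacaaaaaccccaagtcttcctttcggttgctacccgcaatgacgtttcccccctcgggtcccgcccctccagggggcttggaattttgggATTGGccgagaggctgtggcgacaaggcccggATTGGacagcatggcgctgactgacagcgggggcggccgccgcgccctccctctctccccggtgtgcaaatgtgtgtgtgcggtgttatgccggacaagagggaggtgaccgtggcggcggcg
TOP2B, inner start, chr3:25664323-25664622, minus strand: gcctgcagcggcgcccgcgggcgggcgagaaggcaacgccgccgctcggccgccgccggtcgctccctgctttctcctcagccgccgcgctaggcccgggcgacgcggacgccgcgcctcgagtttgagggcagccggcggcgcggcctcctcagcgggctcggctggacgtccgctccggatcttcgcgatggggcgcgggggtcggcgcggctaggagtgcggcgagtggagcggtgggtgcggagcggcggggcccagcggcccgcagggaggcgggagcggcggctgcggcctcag
NCAPD2, chr12:6493852-6494151, plus strand: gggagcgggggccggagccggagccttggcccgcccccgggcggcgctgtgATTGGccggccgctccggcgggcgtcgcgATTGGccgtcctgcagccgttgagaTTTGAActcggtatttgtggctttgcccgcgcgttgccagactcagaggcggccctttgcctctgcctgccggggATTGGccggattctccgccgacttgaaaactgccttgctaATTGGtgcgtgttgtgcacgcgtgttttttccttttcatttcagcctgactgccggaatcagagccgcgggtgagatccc
NCAPG, chr4:17810729-17811028, plus strand: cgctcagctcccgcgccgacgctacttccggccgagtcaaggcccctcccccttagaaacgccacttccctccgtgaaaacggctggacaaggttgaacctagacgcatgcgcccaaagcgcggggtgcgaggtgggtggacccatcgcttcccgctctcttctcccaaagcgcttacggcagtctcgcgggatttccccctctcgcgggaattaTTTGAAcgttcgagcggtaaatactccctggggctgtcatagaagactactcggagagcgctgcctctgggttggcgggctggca

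TOP2A held 2 CHR words and 4 CCAAT words, NCAPD2 held 1 and 4, and NCAPG held 1 and 0. The outer start of TOP2B held 1 CHR and 2 CCAAT words, and its inner start held none of either. Across 35116 such windows of all genes, 15.2% held a CHR word, 34.6% a CCAAT word, 5.90% both, 2.27% at least 2 CHR words and 0.991% at least 4 CCAAT words. Over the 14 windows of the 10 genes, 7 held a CHR word (7 genes), 5 a CCAAT word (5 genes) and 4 both. The window of TOP1 and that of TOP3A held no copy of either. These letter matches describe the windows and were not tested as sites.

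The libraries held between 29861687 and 35317010 counts, and the 10 most abundant genes took 5.63% to 8.52% of them. HMGB1, the target, stood at 181 and 237 CPM (counts scaled by library size and TMM factor) with control siRNAs and at 16.0 and 18.9 CPM after knockdown (log2-fold change −3.59, adjusted p = 0.0075). The summed level of 11 fibroblast markers was between 23649 and 41333 CPM, and every one of them was expressed. Of 7 epithelial markers, 3 were at or under 3 counts in all libraries, and the sum was 64.0 to 99.1 CPM. Of 4 endothelial markers, CDH5 was at 0 counts in all libraries, and TEK, at 131 to 149 CPM, made up nearly all of the sum of 135 to 150.03 CPM. The 6 immune markers summed to 0.0814 to 0.346 CPM.

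All 10 genes passed the filter on low counts, with 359 to 11506 counts per library. Per kilobase of exon, averaged over the 4 libraries, TOP1 was the most abundant of them at 82.6 CPM per kb. It ranged from 62.0 to 98.6 CPM per kb and overlapped no other member. TOP2B followed at 27.4 CPM per kb (18.6 to 37.7) and TOP2A at 23.4 (15.9 to 36.5), whose ranges overlapped almost wholly. NCAPD2 stood at 14.3 CPM per kb (10.8 to 16.4), and the ranges of SMC4 at 9.14 (6.84 to 11.6) and NCAPG at 8.18 (5.22 to 10.8) reached into its range. NCAPH at 5.96 CPM per kb, NCAPD3 at 5.70 and SMC2 at 5.57 could not be ordered against each other beyond their spread. TOP3A was the least abundant at 4.13 CPM per kb, with the narrow range of 3.85 to 4.53, which lay within that of SMC2.

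**Figure D1:**
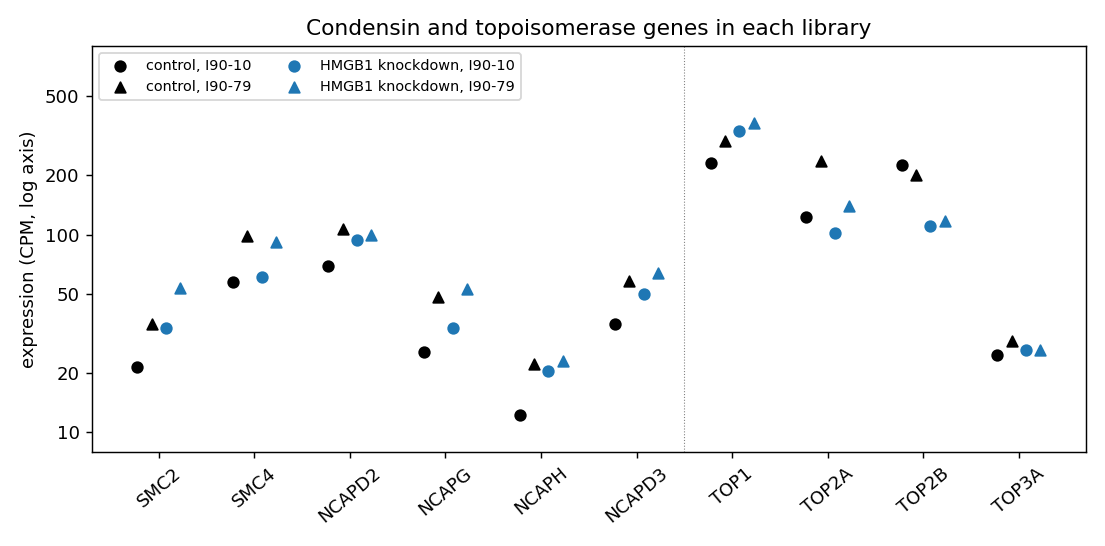
Expression of the 10 genes in each library, as CPM on a log axis, with control libraries in black, knockdown libraries in blue, circles for isolate I90-10 and triangles for I90-79. The 2 knockdown libraries lie below both control libraries for TOP2B and above both for TOP1, and for the other 8 genes the groups overlap.

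The first question was whether any of these genes changed upon HMGB1 knockdown. Without regard to the isolate, 0 of the 10 were called up and 0 down at the thresholds of the study's methods (adjusted p below 0.01 and a log2-fold change beyond 0.6), where 0.0649% of all 15398 genes tested were called up and 0.136% down. An unadjusted p below 0.05 was found for 1 of the 10, TOP2B, against 28.3% of all genes. With the isolate as a replicate block, SMC2 was called up, where 6.68% of all genes were, and TOP2B was called down, where 7.84% were. With RUVs, where 1 estimated factor of unwanted variation was entered as a covariate in DESeq2, 0 were called up and 2 down, TOP2A and TOP2B. The study instead normalized its counts with RUVs before DESeq2, and its number of factors is not given, so the fits may differ. Of all genes, 4.97% were called up and 5.39% down with it. For several of the 10 genes, TOP2A among them, the RUVs value lay outside the changes seen within the isolates. The median log2-fold change of the 10 genes was 0.18 (6 above 0, 4 below), 0.21 with the block and −0.07 with RUVs, beside −0.0054 for all genes tested. These counts are small, and a share of 1 in 10 genes cannot be read as apart from the background.

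TOP2B (ENSG00000077097, chromosome 3, 25639475 to 25706398, minus strand, hg19) had the largest difference of the 10 genes in the fit without the isolate. It stood at 225 CPM in control I90-10 and 199.8 in control I90-79, and at 111 and 117 CPM in the knockdown libraries. Both knockdown libraries lay below both control libraries, and the groups were apart in this direction, by any margin, for 30.2% of all genes. The group means were 212 ± 17.6 CPM (SD, n = 2) and 114 ± 4.80 CPM (SD, n = 2), a 1.86-fold lower level, or −0.90 on the log2 scale (95% interval −1.20 to −0.59, standard error 0.12). The adjusted p of 0.021 did not pass the threshold of 0.01. The transcript was lower in both isolates, by log2-fold changes of −1.02 in I90-10 and −0.77 in I90-79. With the replicate block the value was −0.89 (standard error 0.10, adjusted p = 5.3e-04), with DESeq2 −0.89 (adjusted p = 1.4e-06) and with RUVs −0.86 (adjusted p = 3.1e-07). Its range of adjusted p under the alternatives ran from 3.1e-07 to 0.119, the latter without knockdown replicate 1.

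TOP2A (ENSG00000131747, chromosome 17, 38544768 to 38574202, minus strand) was the more variable of the type II pair. It measured 123 CPM in control I90-10 and 235 CPM in control I90-79, against 102 and 140.4 CPM in the knockdown libraries. The groups overlapped, since the knockdown library of I90-79 lay above the control library of I90-10, and the control libraries differed from each other by more than the group means did. Within each isolate TOP2A was lower upon knockdown, by −0.27 in I90-10 and −0.74 in I90-79 on the log2 scale. The log2-fold change was −0.56 (standard error 0.33, 95% interval −1.40 to 0.28, adjusted p = 0.325). With the replicate block it was −0.51 (standard error 0.13, adjusted p = 0.017), short of both thresholds, and with RUVs −0.88 (adjusted p = 4.9e-07), which passed them. The RUVs value was beyond the change within either isolate. Dropping control replicate 2 from the fit without the isolate gave −0.02, and dropping control replicate 1 gave −0.95. Either omission sets controls of a single isolate against knockdown libraries of both. In the control, TOP2A was 0.93 higher in I90-79 than in I90-10 on the log2 scale. These omissions therefore cannot show whether a single library carried the change.

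TOP1 (ENSG00000198900, chromosome 20, 39657458 to 39753127, plus strand) lay the other way. It stood at 232 and 299 CPM in the control and at 336 and 368 CPM in the knockdown libraries of I90-10 and I90-79. The groups did not overlap, as with 29.8% of all genes, and the gain was seen in both isolates (0.54 and 0.30 on the log2 scale). The means were 265 ± 47.8 CPM (SD, n = 2) and 352 ± 23.002 CPM (SD, n = 2), and the log2-fold change was 0.41 (standard error 0.17, 95% interval −0.01 to 0.83, adjusted p = 0.187). The replicate block left it at 0.42 (standard error 0.10) with an adjusted p of 0.016, which again missed the threshold.

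TOP3A (ENSG00000177302, chromosome 17, 18174742 to 18218321, minus strand) measured 24.7 and 29.1 CPM in the control and 26.1 CPM in each knockdown library. Its log2-fold change of −0.05 had a 95% interval from −0.40 to 0.30 (adjusted p = 0.858). Of the topoisomerases outside the 10 genes, TOP3B was at 22.4 and 23.2 CPM in the control and at 26.6 and 27.0 CPM in the knockdown libraries (log2-fold change 0.23, adjusted p = 0.271). Some of its reads may go uncounted, since 13.2% of 50-base windows along its transcripts were found in other genes too. Only uniquely mapped reads were counted. TOP1MT, the mitochondrial type I enzyme, lay between 13.8 and 17.7 CPM (log2-fold change 0.16, adjusted p = 0.556), and the meiotic SPO11 had 0 counts in every library.

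SMC2 (ENSG00000136824, chromosome 9, 106856541 to 106903698, plus strand) showed the largest positive difference among the condensin genes. It was higher upon knockdown within each isolate, from 21.5 to 33.7 CPM in I90-10 and from 35.4 to 53.5 CPM in I90-79. The groups overlapped only because the control library of I90-79, at 35.4 CPM, was above the knockdown library of I90-10. The log2-fold changes of the isolates, 0.65 and 0.60, were nearly equal. Without the block the log2-fold change was 0.62 (standard error 0.32, 95% interval −0.19 to 1.42, adjusted p = 0.270), and with it 0.62 (standard error 0.10, 95% interval 0.39 to 0.86, adjusted p = 0.0027), which passed. With RUVs it was 0.27 (adjusted p = 0.344), below the change within either isolate.

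SMC4 (ENSG00000113810, chromosome 3, 160117062 to 160152750, plus strand), the ATPase partner of SMC2, did not follow it. It was at 57.9 and 98.3 CPM in the control and at 60.8 and 92.2 CPM in the knockdown libraries of I90-10 and I90-79. The isolates differed far more than the groups did, and the log2-fold change was −0.03 (standard error 0.31, 95% interval −0.82 to 0.76). With the replicate block the interval was −0.24 to 0.22 (adjusted p = 0.939), and with RUVs the value was −0.37 (adjusted p = 0.079). The RUVs value was below the change within either isolate, 0.07 in I90-10 and −0.09 in I90-79. Of the exonic bases of SMC4, 25.6% overlap IFT80 and TRIM59 on the other strand, and whether reads were counted by strand is not given in the sources used here.

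The condensin I subunits were higher upon knockdown in I90-10, by 0.43 (NCAPD2), 0.40 (NCAPG) and 0.75 (NCAPH) on the log2 scale, and differed less in I90-79, by −0.09, 0.13 and 0.04. NCAPD2 (ENSG00000010292, chromosome 12, 6602522 to 6641121), a HEAT-repeat subunit, measured 69.8 and 107 CPM in the control and 93.8 and 99.9 CPM in the knockdown libraries. NCAPG (ENSG00000109805, chromosome 4, 17812525 to 17846485), the other HEAT-repeat subunit, measured 25.7 and 48.4 CPM against 33.8 and 53.1 CPM. NCAPH (ENSG00000121152, chromosome 2, 97001525 to 97039583), the kleisin that closes the ring, measured 12.2 and 22.3 CPM against 20.6 and 22.99 CPM. In each of the 3 genes the control library of I90-10 was the lowest of the 4, and the groups overlapped. Their log2-fold changes were 0.13 (95% interval −0.41 to 0.68), 0.23 (−0.68 to 1.13) and 0.33 (−0.42 to 1.08), with adjusted p of 0.723, 0.717 and 0.510. With the replicate block the values were 0.16 (95% interval −0.14 to 0.47), 0.26 (0.006 to 0.52) and 0.38 (−0.02 to 0.78), and the adjusted p were 0.378, 0.108 and 0.127. For NCAPG, 33.1% of the exonic bases overlap LCORL on the other strand, so its counts are uncertain, and for NCAPD2 7.49% overlap MRPL51.

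NCAPD3 (ENSG00000151503, chromosome 11, 134020014 to 134095348, minus strand), a HEAT-repeat subunit of condensin II, was at 35.5 and 58.0 CPM in the control and at 50.03 and 63.9 CPM in the knockdown libraries. It was higher in both isolates (0.49 and 0.14 on the log2 scale), and the log2-fold change was 0.28 (95% interval −0.38 to 0.95, adjusted p = 0.527). With the block the value was 0.31 (95% interval 0.04 to 0.58, adjusted p = 0.074). Of its exonic bases, 8.90% overlap other genes on the other strand. Of the condensin II subunits outside the 10 genes, the kleisin NCAPH2 measured 24.3 and 29.9 CPM against 32.5 and 34.1 CPM, a log2-fold change of 0.29 (adjusted p = 0.257) with groups that did not overlap. Other genes hold 17.6% of the 50-base windows of NCAPH2. NCAPG2 measured 28.9 and 52.2 CPM against 35.1 and 50.2 CPM, a log2-fold change of 0.07 (adjusted p = 0.910).

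**Figure D2:**
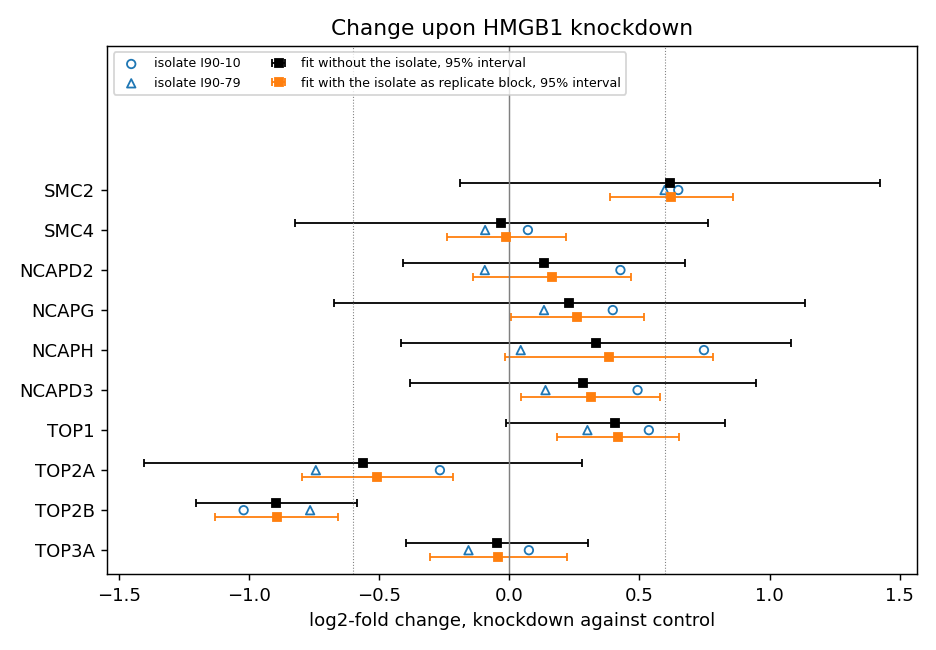
Log2-fold change of each gene upon HMGB1 knockdown without the isolate (black squares) and with the isolate as replicate block (orange squares), with 95% intervals as bars and the change within each isolate as open blue symbols. Dotted lines mark changes of −0.6 and 0.6. The intervals are narrower with the block for all 10 genes, and SMC2 and TOP2B are the 2 genes called with it.

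Ratios taken inside a library do not depend on its size factor and set the subunits and paralogs against each other, here per kilobase of exon. The ratio of SMC2 to SMC4 was 0.485 and 0.471 with control siRNAs and 0.725 and 0.760 after knockdown. The means were 0.478 ± 0.0105 (SD, n = 2) and 0.743 ± 0.0241 (SD, n = 2), so the ratio was 1.55 times as high upon knockdown, and the isolates differed little (exact two-sided permutation p = 0.333, the smallest that 2 against 2 libraries allow). The ratio of the condensin I subunits to the condensin II subunits was 1.25 and 1.42 in the control and 1.33 in both knockdown libraries, which lay between them.

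The ratio of TOP2A to TOP2B was 0.508 in the control library of I90-10 and 1.09 in that of I90-79, and 0.858 and 1.11 upon knockdown. TOP2A thus made up 33.7% and 52.2% of the type II transcripts in the control and 46.2% and 52.6% in the knockdown libraries, and the groups overlapped. The type II transcripts together measured 56.8 and 70.03 CPM per kb in the control and 34.5 and 41.5 CPM per kb upon knockdown, so that the groups did not overlap. A further ratio, chosen after the values were seen, set TOP1 against TOP2A plus TOP2B. It was 1.09 and 1.14 in the control and 2.61 and 2.38 in the knockdown libraries, 2.23 times as high on average (exact two-sided permutation p = 0.333, the smallest possible).

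**Figure D3:**
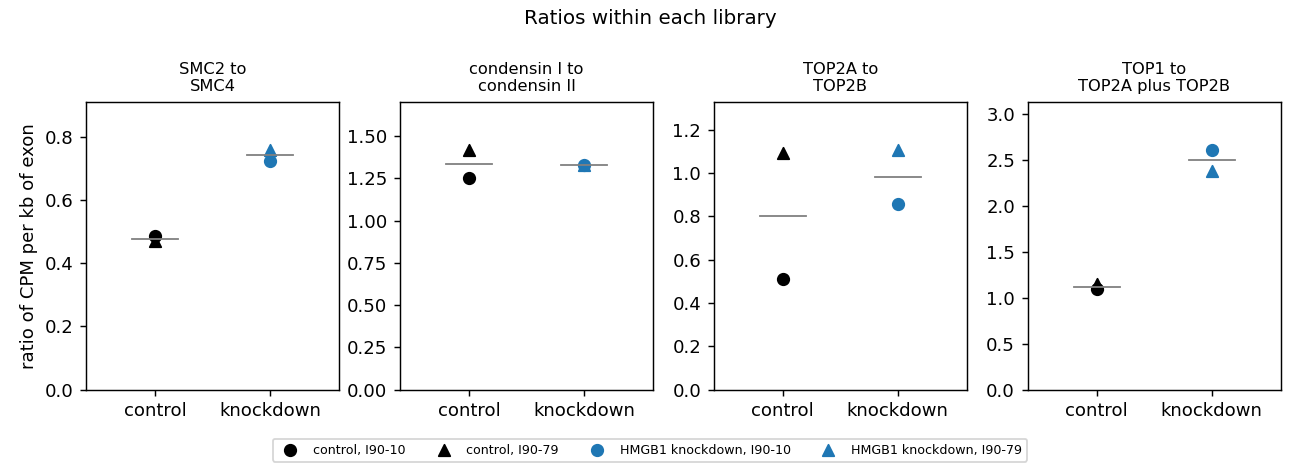
Ratios of CPM per kb within each library, on linear axes from 0, for the control libraries (black) and the knockdown libraries (blue), with circles for I90-10, triangles for I90-79 and a grey line at each group's mean. The libraries of a group lie close together for SMC2 to SMC4 and for TOP1 to the type II pair, and the control libraries lie far apart for TOP2A to TOP2B.

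The libraries of the isolates differed in these genes. Isolate and replicate number coincide in both groups, so a difference of the isolates and one of the replicate cultures cannot be told apart. In the control libraries, the level in I90-79 exceeded that in I90-10 by a median of 0.71 on the log2 scale over the 10 genes, and in the knockdown libraries by 0.26, against 0.0004 and 0.0022 over all genes tested. Of the 10 genes, 9 were higher in I90-79 in both groups, where 33.5% of all genes were. The control differences were 0.93 for TOP2A, 0.91 for NCAPG, 0.86 for NCAPH, 0.76 for SMC4 and 0.72 for SMC2, and they were 0.37 for TOP1 and 0.24 for TOP3A. TOP2B was the exception, at −0.17 in the control and 0.09 in the knockdown. SMC2 and SMC4 kept most of the difference upon knockdown (0.67 and 0.60), while NCAPD2 went from 0.61 to 0.09 and NCAPH from 0.86 to 0.16.

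With 1 library per isolate and group, these differences have no replicate check and were not tested. Markers of the dividing cell moved with them. Of 20 marker genes of G2 and mitosis, 19 were higher in I90-79 in both groups, by a median of 0.91 in the control and 0.28 in the knockdown, and of 17 S-phase genes 16 were, by 0.79 and 0.25. Of the 11 fibroblast markers 0 were higher in I90-79 in both groups, with medians of −0.76 and −0.41. In bulk RNA, fewer cells expressing a gene and less RNA per cell cannot be told apart, and the part of the share of dividing cells in the differences among the 10 genes was not tested.

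**Figure D4:**
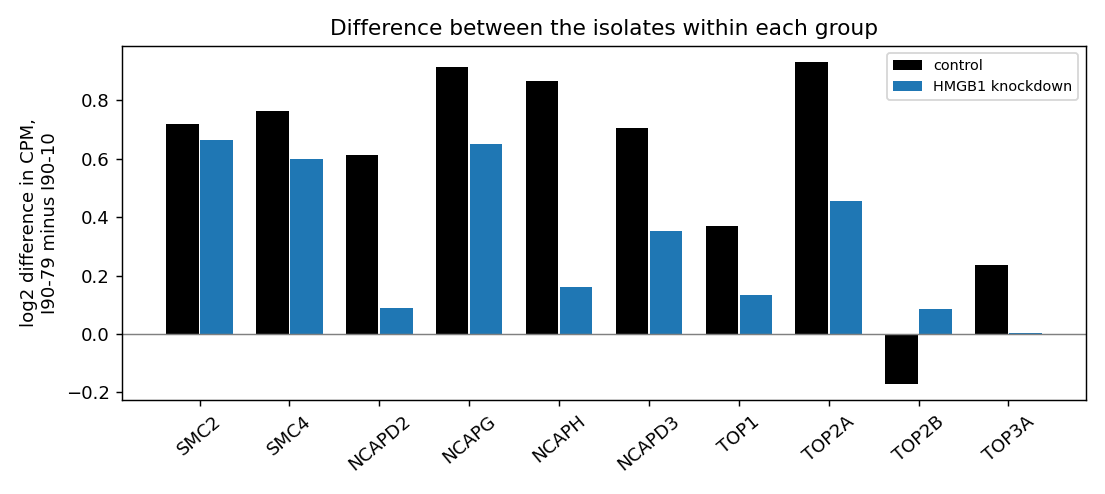
Difference between the isolates in log2 CPM (I90-79 minus I90-10) for each gene, in control libraries (black bars) and knockdown libraries (blue bars), with 1 library behind each level. The control bars are taller than the knockdown bars for every gene but TOP2B, whose control bar is below 0.

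The division markers were also read across the knockdown. Of the 20 genes of G2 and mitosis, 10 had a log2-fold change above 0 and 10 below, with a median of 0.03, and 0 were called. With the replicate block, ASPM, a spindle-pole protein, was called down (−0.71, adjusted p = 0.0016), where 7.84% of all genes were. With RUVs the median was −0.23 and 4 were called down, where 5.39% of all genes were. Of the 17 S-phase genes tested, 12 lay above 0 and 5 below, with a median of 0.28 and 0 calls. With RUVs the median was 0.05, and 1 was called up and 2 down, where 4.97% and 5.39% of all genes were. With the block, MCM7, a subunit of the replicative helicase, was called up (1.01, adjusted p = 0.0012), as was the thymidylate synthase TYMS (0.65, adjusted p = 0.0073). The sliding clamp PCNA was called down (−0.99, adjusted p = 6.1e-04). Of all genes, 6.68% were called up and 7.84% down with the block, and so few calls cannot be read as apart from this background. PCNA went from 90.1 and 121 CPM to 51.7 and 53.5 CPM.

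Genes that act with condensin gave no call without the block either. Of 13 regulators and chromosome partners, 6 were above 0 and 7 below, with a median of −0.08. Groups that did not overlap, with the knockdown lower, were found for 5 of the 13, against 30.2% of all genes. With RUVs the median was −0.21 and 4 were called down, where 5.39% of all genes were. KIF4A, a chromokinesin that binds condensin, measured 25.1 and 43.1 CPM in the control and 15.5 and 16.8 CPM in the knockdown libraries. That is −1.08 on the log2 scale (adjusted p = 0.073, standard error 0.27), and −1.03 with the block (adjusted p = 0.0023), which passed. CBX5, the heterochromatin protein HP1α, measured 125 and 129 CPM against 79.7 and 81.3 CPM, at −0.66 both ways (adjusted p = 0.028, and 0.0013 with the block). These were the 2 of the 13 called down with the block, where 7.84% of all genes were.

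Of 12 genes that bind topoisomerases or repair the breaks they leave, 7 were above 0 and 5 below, with a median of 0.03. ZNF451, a SUMO ligase that acts on trapped TOP2, measured 26.6 and 27.2 CPM in the control and 38.2 and 48.4 CPM in the knockdown libraries. It was 0.69 higher on the log2 scale (adjusted p = 0.057, standard error 0.15), and with the block 0.68 (adjusted p = 0.0033). This was the single call among the 12 with the block, where 6.68% of all genes were called up.

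The other SMC complexes were read for comparison. Of 15 cohesin and SMC5/6 genes, 6 were above 0 and 9 below, with a median of −0.03 and 0 calls. An unadjusted p below 0.05 was reached by 5 of them, against 28.3% of all genes. Under the block, the cohesin ATPase SMC1A was called up (0.62, adjusted p = 0.0018), where 6.68% of all genes were. The other SMC genes of the list were not called under the block (SMC3 −0.03, SMC5 −0.40 and SMC6 −0.55). The loader subunit MAU2 (−0.91, adjusted p = 4.0e-04) and the cohesin subunit STAG2 (−1.32, adjusted p = 1.8e-04) were called down, where 7.84% of all genes were. MAU2 lay at 69.4 and 69.7 CPM in the control and at 36.7 and 37.1 CPM in the knockdown libraries. The markers of cell types also held calls with the block. Among the 11 fibroblast genes LUM was up (0.83), where 6.68% of all genes were. PDGFRB (−0.68) and THY1 (−0.99) were down, where 7.84% of all genes were, and the median of the 11 genes with the block was −0.09. With RUVs, 3 were called up and 0 down, with a median of 0.43, where 4.97% and 5.39% of all genes were called. With the block, KRT18 (0.74) of the 4 epithelial genes tested and VWF (1.55) of the 3 endothelial genes were called up, where 6.68% of all genes were. VWF went from 1.36 and 0.923 CPM in the control to 4.16 and 2.59 CPM in the knockdown libraries. KRT8 (−0.60), KRT19 (−0.65) and TEK (−0.17) were below 0 with the block, EPCAM (0.09) and KDR (0.45) were above 0, and none of these was called. So few calls cannot be read as apart from the background.

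For 3 of the genes, the transcripts with the most similar profile over the 4 libraries were found, by the Euclidean distance between centred log2 CPM among 13105 genes. The profile of TOP2A, with its high control library of I90-79, was nearest to that of PRKCH (0.0509), VPS9D1-AS1 (0.0825) and the proliferation antigen MKI67 (0.124), where the median distance was 1.004. MKI67 measured 123 and 214 CPM in the control and 103 and 131 CPM in the knockdown libraries. The distance compares profiles over the libraries and not levels between genes. NCAPG was nearest to ZNF367 (0.0736), ENSG00000270143 (0.0772) and CLSPN (0.0791), and TOP1 to MRPL57 (0.0275), UBE2M (0.0344) and KIFC3 (0.0359). The distances, over 4 libraries, are a description.

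The 3′ UTRs of the 10 genes were also read for the 6-letter word GCAGTT, taken from earlier results of these data. Over 12376 genes tested with a 3′ UTR of at least 100 bases, 36.2% held it, and the median log2-fold change was 0.07 with no copy, −0.10 with 1 copy and −0.26 with 2 or more. The UTR of TOP2B, with 326 bases, held 0 copies, as did those of SMC2, NCAPD2, NCAPG, NCAPH and TOP1. TOP2A and SMC4 held 1 copy each, TOP3A 2 and NCAPD3 3. Of the 4 genes with the word, SMC4, TOP2A and TOP3A had a log2-fold change below 0 and NCAPD3 one above 0. Of the 6 without it, TOP2B was below 0 and the other genes were above 0. SMC4 (−0.03) and TOP3A (−0.05) were near 0, with intervals that span 0, and went opposite ways in the isolates. A longer UTR has more room for a word, and the groups by copies were not matched for UTR length, which ran from 326 to 3743 bases among the 10 genes. Because the word came from these same data, the medians and signs are a description and cannot serve as a test of it.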

How the data were processed

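RNA was extracted 72 h after transfection, poly(A)-selected and made into TruSeq libraries, which were sequenced paired-end. The deposited values are raw counts per gene: the authors mapped reads to hg19 with STAR and counted uniquely mapped reads with featureCounts, and the versions are not given in the sources used here. Symbols were matched to Ensembl identifiers through the reference tables (55665 of 63677 genes, 116 of 118 listed genes). The members and lists were chosen with earlier results of these data known.

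Genes passing filterByExpr (15398) were tested with edgeR 4.0.16 (quasi-likelihood, TMM factors between 0.968 and 1.04) on group alone in R 4.3.3, with Benjamini-Hochberg adjustment over all of them and calls at an adjusted p below 0.01 and a log2-fold change beyond 0.6. The scripts were tested on simulated data, whose isolate differences were not matched to those of the genes followed here. That test does not decide between the fits with and without the block. CPM use the same library sizes, standard errors come from the F statistic, and isolate-wise changes use a prior count of 2. Alternatives were the isolate as replicate block, DESeq2 1.42.0 with and without RUVs (1 factor), other filters and size factors, thinning, an adjusted p below 0.05, and leaving out each library. The RUVs factor was computed over all genes tested, without the RUVSeq package, and entered the model as a covariate. The same isolate supplied both groups, which pairs the libraries, and the I90-79 minus I90-10 differences of the groups correlated at 0.46 over 15398 genes. Nothing says that further cultures were used, so p-values measure the spread between these libraries. With 2 against 2 libraries, a two-sided permutation p cannot fall below 0.333.

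Named were the 10 members, the remaining condensin II subunits and topoisomerases, HMGB1, the genes of each list called without or with the block, and the 3 nearest profiles of TOP2A, NCAPG and TOP1. Levels between genes were compared per kb of the deposited exon length. UTRs came from GENCODE annotation of GRCh37.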

Additional observations from a re-analysis of the deposited data

Results flagged for a closer look

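Of the 10 genes, 3 moved in opposite directions in the isolates upon knockdown, with 1 library per isolate and group, and the difference was not tested. On the log2 scale, SMC4 changed by 0.071 in I90-10 and −0.093 in I90-79. For NCAPD2 the values were 0.43 and −0.095. For TOP3A they were 0.075 and −0.16. Of all 15398 genes tested, 5987 were higher upon knockdown in both isolates and 6071 lower in both. Of the 10 genes, 5 were higher in both and 2 lower. With 10 genes, the count cannot be read as apart from the background.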

How the results depend on the processing

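Without the isolate, 10 genes of the whole table were called up and 21 down. The counts up and down were 1028 and 1207 with the replicate block, 728 and 818 with DESeq2, 765 and 830 with RUVs, 1118 and 1275 with no filter on low counts, and 575 and 668 at an adjusted p below 0.05. With at least 10 counts in every library 6 were called up. Leaving out a library gave 0 to 182 up and 0 to 221 down, with 0 both ways without either knockdown replicate, 41 and 73 without control replicate 1 and 182 and 221 without control replicate 2. Of the 10 members, 1 was called up with the replicate block and with no filter (SMC2 in both). TOP2B was called down with the replicate block, DESeq2, RUVs, no filter and an adjusted p below 0.05, and it was 1 of the 2 called down with RUVs and the single one otherwise. RUVs turned NCAPD2 to −0.028 and NCAPG to −0.15 on the log2 scale. The NCAPG value was below the change within either isolate, 0.40 in I90-10 and 0.13 in I90-79. Leaving out a library gave ranges of −0.36 to 0.40 for SMC4, −0.14 to 0.47 for NCAPD2, −0.027 to 0.68 for NCAPD3, −0.16 to 0.76 for NCAPG, −0.034 to 0.83 for NCAPH and −0.16 to 0.076 for TOP3A, each running from below to above 0. These omissions were fitted without the isolate and leave the isolates unbalanced between the groups, and within both isolates NCAPD3, NCAPG and NCAPH were higher upon knockdown. SMC2 stayed between 0.24 and 1.02, TOP1 between 0.23 and 0.60 and TOP2B between −0.98 and −0.81 under the same omissions. The causes were not tested. The replicate block changed the calls of SMC2 and TOP2B and no other among the members. Thinning to the smallest library changed no call or direction among them.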
